A study of Mus musculus with 6 samples.

Results

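Immediate early genes are switched on within minutes of a growth factor, stress or cAMP signal, without new protein synthesis, and many of them encode transcription factors or inhibitors of the pathway that induced them. In the cAMP branch, protein kinase A phosphorylates CREB bound at cAMP response elements (CREs), and phosphorylated CREB recruits the acetyltransferase CBP, the product of Crebbp, or its paralogue p300. In the growth factor branch, ERK acts through SRF and its ETS partners, and DUSP and Sprouty proteins feed back on ERK.

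The genes described here are 38 immediate early and CREB target genes, listed by name, out of 23284 gene names in the count files, and all 38 were present. They were read in 6 RNA-seq libraries of preSC cells, a mouse line that the labels call a precursor of small cell lung cancer. As background, preSC lines were derived from early neuroendocrine lesions of mice with Rb1 and Trp53 deleted in lung, a genotype that the labels do not state. All cells carried a lentiviral pLKO.1 vector. Control replicates 1 and 2 had the empty vector (shEmpty) and control replicate 3 a non-silencing hairpin (shNS), while the shCrebbp libraries had hairpin 1, 2 or 5 against Crebbp, with 1 library per hairpin. No stimulus is named in the labels, so the values are levels in culture as harvested. Nothing says that libraries came from separate cultures, so the p-values cover only library-to-library spread. In the shCrebbp group that spread holds any difference between hairpins, and in the controls any difference between shEmpty and shNS. Every shCrebbp library carried a hairpin, but of the controls only replicate 3 did, so the group difference holds part of any effect of carrying a hairpin.

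Gene counts ran from 13622020 to 19804949 per library, and levels are given as CPM (TMM-normalized counts per 1000000), of which 1 stood for 13.6 to 19.6 reads. Crebbp stood at 66.2 to 69.6 CPM in the controls and at 46.2, 58.3 and 48.9 CPM under hairpins 1, 2 and 5, so hairpin 2 left the most transcript. The log2 fold change of Crebbp was -0.42 ± 0.10 (SE, edgeR adjusted p = 0.0999), 1.34-fold, so the targeted gene itself did not pass 0.05 in edgeR. The neuroendocrine markers Insm1 (704 to 1009 CPM) and Chga (318 to 472 CPM) were abundant in every library. The 6 fibroblast markers summed to 13.3 to 63.3 CPM over the libraries, nearly all of it Dcn, and Col3a1 had no read. The 6 leukocyte markers summed to 3.47 to 5.99 CPM, with Ptprc at most 0.122 CPM.

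Promoter stretches of Per1 (its downstream start), Junb, Maff, Rgs2 and Fos are shown as examples. These members lay below all controls with every hairpin and had the CRE core TGACG in a promoter window. Klf6, Gadd45b and Zfp36 also lay below all controls but had no core in theirs, and are not shown. Nr4a2 and Dusp1 are shown because they have the same letters but did not lie below all controls. Sequences are from RefSeq promoter windows on GRCm38.p6, upstream of the annotated start and on the gene's strand, with capitals marking the CRE core TGACG, or CGTCA on the other strand.
Per1 (chr11:69100000-69100151, + strand): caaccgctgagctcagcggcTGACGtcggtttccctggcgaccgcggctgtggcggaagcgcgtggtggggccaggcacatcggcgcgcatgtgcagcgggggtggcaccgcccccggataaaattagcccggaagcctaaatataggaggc
Junb (chr8:84978749-84978874, - strand): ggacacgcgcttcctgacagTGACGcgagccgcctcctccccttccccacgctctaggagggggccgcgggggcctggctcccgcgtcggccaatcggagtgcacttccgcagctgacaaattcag
Maff (chr15:79347471-79347519, + strand): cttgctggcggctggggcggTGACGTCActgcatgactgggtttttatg
Rgs2 (chr1:144004192-144004354, - strand): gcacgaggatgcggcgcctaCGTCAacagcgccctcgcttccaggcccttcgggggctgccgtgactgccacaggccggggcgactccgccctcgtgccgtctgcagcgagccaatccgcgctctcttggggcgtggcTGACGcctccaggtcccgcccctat
Fos (chr12:85473741-85473889, + strand): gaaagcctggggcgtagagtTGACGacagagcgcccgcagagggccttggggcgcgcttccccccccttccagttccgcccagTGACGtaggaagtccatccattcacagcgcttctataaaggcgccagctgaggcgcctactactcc
Nr4a2 (chr2:57124090-57124223, - strand): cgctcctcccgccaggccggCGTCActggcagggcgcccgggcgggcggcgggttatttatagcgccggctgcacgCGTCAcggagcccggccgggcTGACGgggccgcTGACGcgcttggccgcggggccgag
Dusp1 (chr17:26508588-26508683, - strand): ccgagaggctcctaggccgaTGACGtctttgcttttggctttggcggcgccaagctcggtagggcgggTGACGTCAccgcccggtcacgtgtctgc

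The core began 132 bases before the start in the Per1 window shown, 106 in Junb, 67 and 185 in Rgs2, and 66 and 129 in Fos. The full palindrome TGACGTCA, which contains the core on both strands, began 29 bases before a start of Maff and 143 before that of Dusp1. RefSeq windows of 300 bases (250 before the start) were matched for 29 of the 38 members. TGACG on either strand was found for 18 of those 29 genes, against 23.0% of all genes with a window, and TGACGTCA for 2, against 2.03%. Some genes have several windows, and over windows the core was in 22 of 45, against 20.8%. The members were listed partly as CREB targets, so these shares cannot be read apart from how the list was made. The CArG box, the SRF site, was found for 3 (Egr2, Dusp5 and Zfp36), against 1.81%. Egr1 had no window, and bases further than 250 before a start were not searched, so sites there would be missed. Members whose hairpin libraries all lay below the controls had the core in 9 of 12 matched genes, and tested members whose groups overlapped had it in 7 of 14. Nr4a3 and Pde4b, not tested, had it too. Pde4d, the 1 matched member above all controls, did not. Klf10, Per2, Dusp4 and Spry4, also below all controls, had no window. Whether the core goes with the position of the hairpin libraries was not tested. These matches describe letters in a window and not binding.

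Most of the members stood lower with Crebbp hairpins, by modest amounts, and in edgeR no member passed an adjusted p of 0.05. After the filter on low counts 34 members were tested. In edgeR's quasi-likelihood test 0 members were called lower, against 0.978% of all 13390 tested genes, and 0 higher, against 0.276%. At an unadjusted p of 0.05, 14 members were lower and 1 higher, against 8.46% and 7.99% of all tested genes. DESeq2 called 6 members lower (Per1, Junb, Maff, Rgs2, Klf6 and Per2) and 0 higher, against 3.23% and 2.22% of genes in that test, and limma-voom called 0. The edgeR log2 fold change was negative in 25 members and positive in 9, where 46.8% of all tested genes were negative and 53.2% positive. Its median over the tested members was -0.30, against 0.01 over all tested genes, and it ranged from -1.02 (Rgs2) to 0.52 (Nr4a2). The members were chosen with earlier results of these data known. Their shares beside those of all genes, here and below, are therefore description only.

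In 16 of the 34 members all hairpin libraries lay below all controls, against 11.0% of all tested genes, and in 2 (Ier2 and Pde4d) all lay above, against 11.4%. The mean log2 CPM over the tested members was 4.82, 4.89 and 4.89 in control replicates 1, 2 and 3, and 4.71, 4.42 and 4.62 with hairpins 1, 2 and 5. Each hairpin library thus stood below each control, by 0.28 between the group means, and hairpin 2 stood lowest. Over the members as a whole, hairpin 1 lay 0.15 below the control mean, hairpin 2 0.45 below and hairpin 5 0.24 below, in mean log2 CPM. All 3 are read against the same controls, and Crebbp itself was highest of the 3 with hairpin 2.

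**Figure D1:**
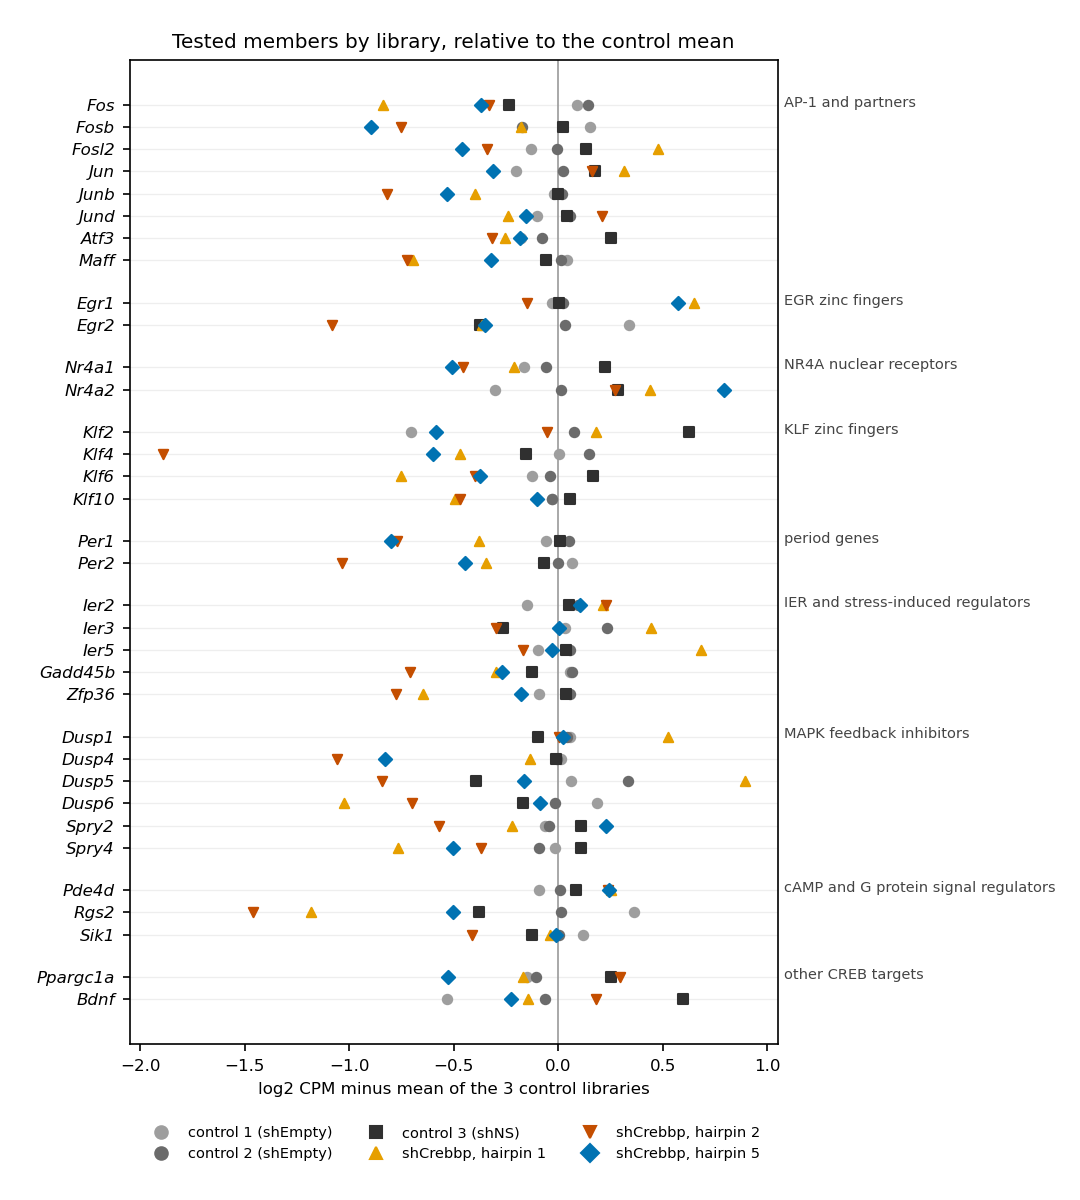
Each tested member (rows, by role) in each of the 6 libraries, as log2 CPM minus the mean of the 3 controls (x axis). Grey and black symbols are controls and coloured symbols the hairpin libraries, which lie wholly to the left of the controls in 16 rows and wholly to the right in 2.

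The members outside the range of the 3 controls differed between hairpins. With hairpin 1, 30 members lay outside that range, 20 of them below and 10 above, where 74.6% of all tested genes lay outside and 36.5% below. With hairpin 2, 29 lay outside, 25 of them below and 4 above (74.9% and 36.8% of all tested genes). With hairpin 5, 25 lay outside, 20 of them below and 5 above (64.7% and 31.5%). Of all 13390 tested genes, 5094 lay above the range with hairpin 1, 5104 with hairpin 2 and 4442 with hairpin 5. The members above the range were thus no larger a share than among all tested genes with any hairpin. The plot of members by library shows the 10 members above the range with hairpin 1, among them Egr1, Ier5, Dusp5 and Dusp1. With 1 library per hairpin these differences were not tested.

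The AP-1 genes encode the FOS, JUN and ATF subunits that pair as leucine zipper dimers, and Maff encodes a small MAF partner. Junb, a JUN subunit, stood at 58.7, 60.2 and 59.4 CPM in control replicates 1 to 3, against 45.1, 33.6 and 41.1 CPM under hairpins 1, 2 and 5. The controls lay within 1.03-fold of each other and all 3 hairpin libraries were lower, with a log2 fold change of -0.57 ± 0.12 (SE; edgeR adjusted p = 0.0622, DESeq2 adjusted p = 0.00134). Maff stood at 78.8, 77.2 and 73.3 CPM in the controls and at 47.2, 46.2 and 61.0 CPM under hairpins. Hairpin 5 was the closest to the controls, and the log2 fold change was -0.57 ± 0.12 (edgeR adjusted p = 0.0680, DESeq2 adjusted p = 0.00183).

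Fos, the partner that confers rapid induction on AP-1, stood at 19.2, 19.9 and 15.3 CPM in the controls and at 9.99, 14.2 and 13.9 CPM under hairpins. The groups did not overlap, but the highest hairpin library lay just under the lowest control (log2 fold change -0.51 ± 0.18, edgeR adjusted p = 0.205). Its relative Fosb stood at 1.77 to 2.25 CPM in the controls and 1.02 to 1.76 CPM under hairpins. Atf3, a stress-induced repressor, also lay below all controls (22.9 to 25.2 CPM under hairpins and 25.3 to 34.1 CPM in controls, edgeR adjusted p = 0.384).

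The most abundant AP-1 genes did not separate the groups. Jun stood at 296, 346 and 385 CPM in the controls and at 424, 382 and 274 CPM under hairpins, so the hairpin libraries spanned the whole control range (log2 fold change 0.07 ± 0.16). Jund stood at 294 to 328 CPM in the controls and 267 to 365 CPM under hairpins (log2 fold change -0.05 ± 0.12). Per length, Jund had 189 and Jun 107 CPM per kilobase of exon in controls, against 25.8 for Junb and 7.69 for Fos. Fosl2 was above the controls with hairpin 1 (43.9 CPM against 28.8 to 34.6) and below them with hairpins 2 and 5 (24.9 and 22.9 CPM). Fosl1 had 0 to 2 reads in each library and was not tested. Of the 8 tested AP-1 genes 7 had negative fold changes, with a median log2 fold change of -0.39.

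**Figure D2:**
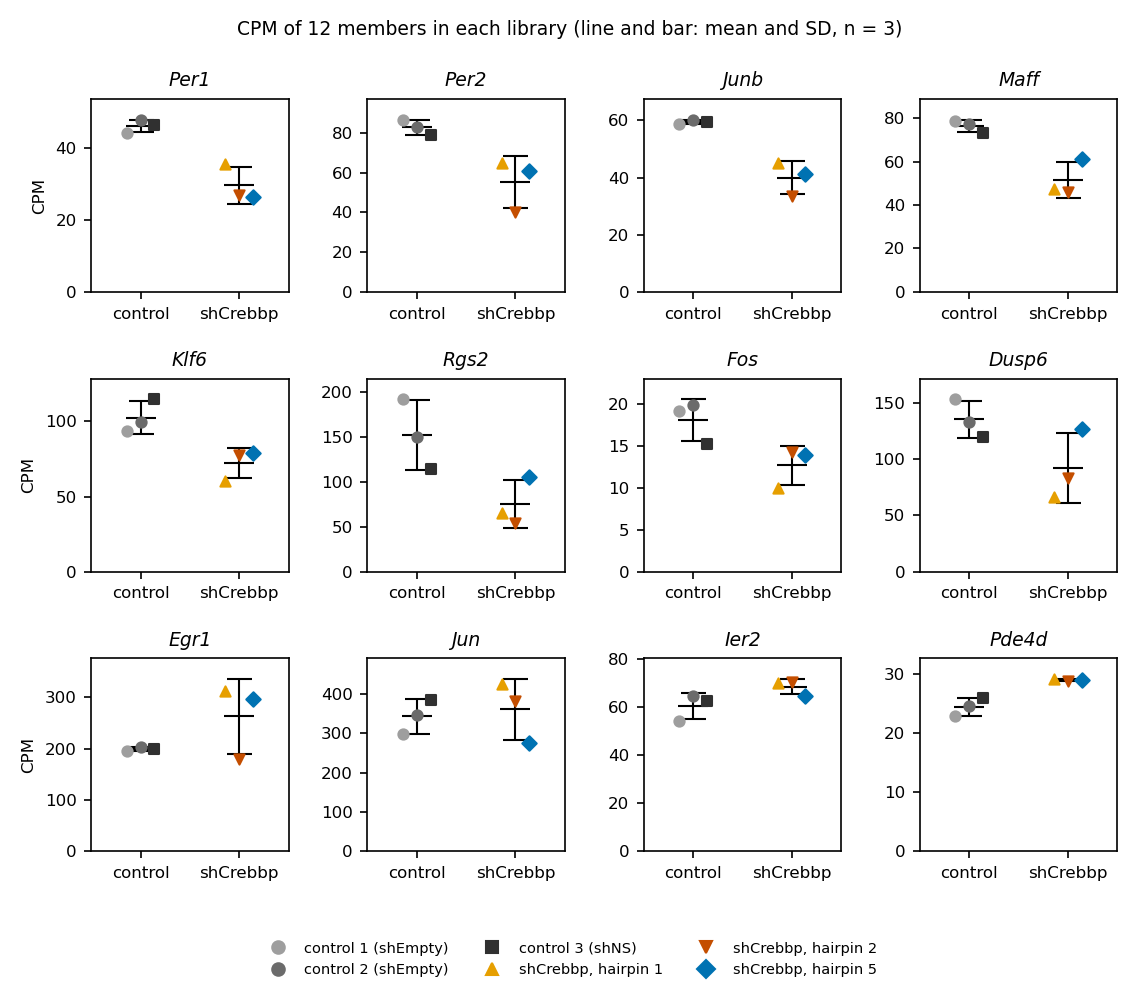
CPM (y axis, from 0) of 12 members in the 3 control and 3 shCrebbp libraries, with the mean and SD of each group. The hairpin libraries lie below the controls for Per1, Per2, Junb, Maff, Klf6, Rgs2 and Fos, on both sides of the controls for Egr1 and Jun, and above them for Ier2 and Pde4d.

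The period genes encode the repressor subunits of the circadian clock, and Per1 is also induced through CREB. Per1 had the smallest p of all members, at 44.1, 47.7 and 46.2 CPM in the controls and 35.3, 26.9 and 26.4 CPM under hairpins 1, 2 and 5. Its means were 46.0 ± 1.78 and 29.5 ± 5.04 CPM (SD, n = 3 each), 1.56-fold apart (log2 fold change -0.64 ± 0.13). It did not pass in edgeR (adjusted p = 0.0591) and passed in DESeq2 (adjusted p = 0.00119), with an adjusted p between 0.00119 and 0.303 over the 13 alternatives. Per2 stood at 86.6, 82.7 and 78.8 CPM in the controls and 65.0, 40.3 and 60.7 CPM under hairpins. Every hairpin library was lower than every control and hairpin 2 the lowest (log2 fold change -0.58 ± 0.16, edgeR adjusted p = 0.137, DESeq2 adjusted p = 0.0260).

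The KLF genes encode zinc finger factors that bind GC-rich promoters. Klf6, the most abundant of the 4 per length, stood at 93.5, 99.5 and 115 CPM in the controls and 60.6, 77.6 and 78.8 CPM under hairpins. The groups did not overlap and hairpin 1 was lowest (log2 fold change -0.50 ± 0.13, edgeR adjusted p = 0.100, DESeq2 adjusted p = 0.0113). Klf10, a TGF-beta-induced repressor, stood at 82.1, 81.9 and 87.2 CPM in the controls. Under hairpins 1, 2 and 5 it stood at 59.5, 60.5 and 78.0 CPM (edgeR adjusted p = 0.197). Klf4 stood at 7.51, 8.29 and 6.71 CPM in the controls and 5.36, 1.92 and 4.90 CPM under hairpins. Hairpin 2 gave the largest departure of any tested member in any library (log2 ratio to the control mean -1.89). That value rests on 27 reads in 1 library, and the group difference of Klf4 had an adjusted p of 0.252 (edgeR). Klf2 varied more among controls than any other tested member, from 17.9 to 45.3 CPM (2.53-fold), and its hairpin libraries lay inside that range.

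Egr1 went the other way in some of the libraries. It encodes a zinc finger factor downstream of ERK and SRF, and it stood at 195, 202 and 199 CPM in the controls and at 312, 179 and 296 CPM under hairpins 1, 2 and 5. The controls lay within 1.04-fold of each other, hairpins 1 and 5 were well above them and hairpin 2 below. The log2 fold change was 0.40 ± 0.19 (edgeR adjusted p = 0.334) with all libraries, 0.61 without hairpin 2 (adjusted p = 0.0232), 0.26 without hairpin 1 (adjusted p = 0.479) and 0.29 without hairpin 5 (adjusted p = 0.512). The single pass thus came from leaving out the library that lay below the controls. Egr2 was low, at 2.41 to 4.04 CPM in the controls and 1.42 to 2.45 CPM under hairpins (log2 fold change -0.63 ± 0.32). Egr3 had 1 to 12 reads in each library and was not tested.

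The NR4A genes encode orphan nuclear receptors that are among the best-known CREB targets. Nr4a1 stood at 9.35, 10.1 and 12.3 CPM in the controls and 9.04, 7.62 and 7.35 CPM under hairpins (log2 fold change -0.40 ± 0.17). Nr4a2 stood at 3.12, 3.90 and 4.74 CPM in the controls and 5.29, 4.70 and 6.81 CPM under hairpins (log2 fold change 0.52 ± 0.25). The paralogues thus differed in sign, and neither passed in edgeR (adjusted p = 0.304 and 0.344). Nr4a3 had 1 to 11 reads in each library and was not tested.

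**Figure D3:**
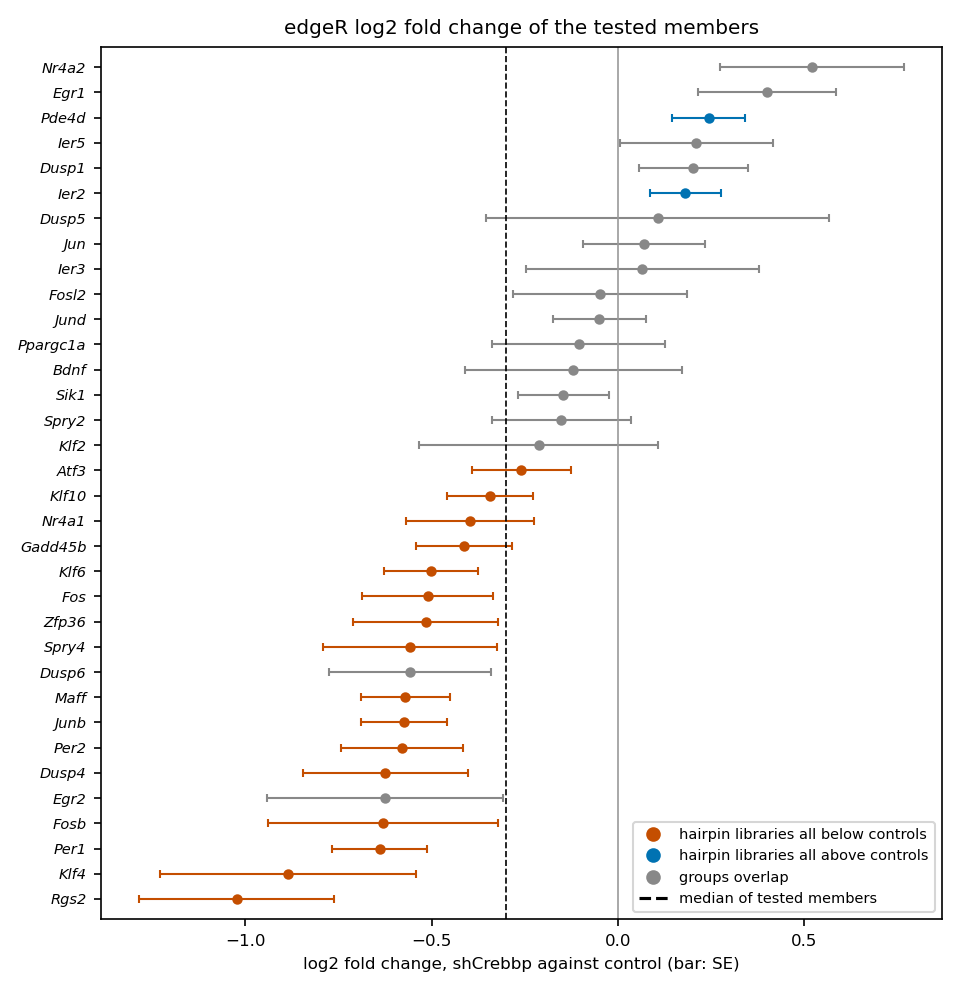
The edgeR log2 fold change (x axis) of each tested member with its standard error, in order of size, coloured by whether the hairpin libraries lay all below the controls, all above them or overlapped. The dashed line is the median of the tested members, -0.30, and the range runs from Rgs2 at -1.02 to Nr4a2 at 0.52.

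Among inhibitors of ERK signalling, 4 of 6 members had negative and 2 positive fold changes, and 0 passed in edgeR. Dusp6, a cytoplasmic phosphatase for ERK, stood at 153, 133 and 120 CPM in the controls and at 66.1, 82.9 and 127 CPM under hairpins 1, 2 and 5. Hairpins 1 and 2 lay below the controls and hairpin 5 within their range, and the log2 fold change of -0.56 ± 0.22 (edgeR adjusted p = 0.252) became -0.87 without hairpin 5 (adjusted p = 0.0362), the hairpin nearest the controls, and -0.37 without hairpin 1 (adjusted p = 0.299). Dusp4, a nuclear phosphatase, was lowest with hairpins 2 and 5. It stood at 24.5, 24.2 and 24.2 CPM in the controls and 22.1, 11.6 and 13.6 CPM under hairpins 1, 2 and 5, and its log2 fold change of -0.62 ± 0.22 (edgeR adjusted p = 0.209) became -0.95 without hairpin 1 (adjusted p = 0.0155), the hairpin nearest the controls, and -0.45 without hairpin 2 (adjusted p = 0.291).

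The Sprouty gene Spry4 was low and below all controls (2.13 to 2.85 CPM under hairpins and 3.48 to 4.01 CPM in controls), and Spry2 overlapped (23.8 to 41.6 CPM under hairpins and 33.9 to 38.2 CPM in controls). Dusp1, a phosphatase of stress kinases, was at 57.7 to 64.0 CPM in the controls, at 61.8 and 62.6 CPM under hairpins 2 and 5, and at 88.8 CPM under hairpin 1. Dusp5 was at 1.61 to 2.74 CPM in the controls and 4.12, 1.14 and 1.91 CPM under hairpins 1, 2 and 5. Both thus stood above the control range with hairpin 1 alone.

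Among genes that act on cAMP or G protein signals, Rgs2 had the largest fold change of the members. It encodes a GTPase-activating protein that ends Gq signalling, and it stood at 192, 150 and 115 CPM in the controls and at 65.6, 54.1 and 105 CPM under hairpins 1, 2 and 5. The means were 152 ± 38.7 and 75.0 ± 26.8 CPM (SD, n = 3 each), a 2.03-fold difference, with hairpin 5 close to the shNS control. The log2 fold change was -1.02 ± 0.26 (edgeR adjusted p = 0.106, DESeq2 adjusted p = 0.00230), and in edgeR it was -1.36 without hairpin 5 (adjusted p = 0.0345), the hairpin nearest the controls, -0.84 without hairpin 2 (adjusted p = 0.174) and -0.82 without control replicate 1 (adjusted p = 0.391).

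Pde4d, a phosphodiesterase that degrades cAMP, was at 22.9, 24.6 and 25.9 CPM in the controls and at 29.1, 28.9 and 28.9 CPM under hairpins. The hairpin libraries were almost identical and all above the controls, a small difference (log2 fold change 0.24 ± 0.10, edgeR adjusted p = 0.265). Its relative Pde4b had 1 to 6 reads in each library and was not tested. Sik1, a kinase that holds CREB coactivators in the cytoplasm and is itself a CREB target, was abundant at 210, 194 and 177 CPM in the controls. The hairpin libraries overlapped with these (188, 145 and 192 CPM under hairpins 1, 2 and 5, log2 fold change -0.15 ± 0.12). Leaving out 1 library moved that value to -0.03 (hairpin 2), -0.09 (control replicate 1) or -0.23 (hairpin 5). The CREB targets Ppargc1a, a coactivator of mitochondrial genes, and Bdnf, a neurotrophin gene, had log2 fold changes of -0.10 ± 0.23 and -0.12 ± 0.29, and Bdnf differed 2.22-fold among controls. Ppargc1a stood at 9.25, 9.51 and 12.3 CPM in the controls and 9.11, 12.6 and 7.08 CPM under hairpins 1, 2 and 5.

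Of the remaining members, Gadd45b, a stress-response gene, was at 83.2, 83.9 and 73.4 CPM in the controls and 65.2, 48.9 and 66.4 CPM under hairpins (log2 fold change -0.41 ± 0.13, edgeR adjusted p = 0.169). Zfp36, which encodes tristetraprolin, a destabilizer of AU-rich messenger RNAs, was at 9.45, 10.5 and 10.4 CPM in the controls and 6.39, 5.84 and 8.92 CPM under hairpins (adjusted p = 0.242). In both, hairpin 2 was the lowest library. Ier2 stood above all controls by a small amount (64.7 to 70.5 CPM under hairpins and 54.3 to 64.3 CPM in controls, log2 fold change 0.18 ± 0.09, or 0.11 without control replicate 1). Ier5 was at 86.6 CPM under hairpin 1 and at 47.9 to 55.9 CPM in the other 5 libraries. Ier3 was near 2 CPM throughout (1.35 to 2.35 CPM).

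By role, the period, KLF, AP-1 and ERK feedback genes had group means of log2 CPM that were lower under every hairpin than in any control. The period genes averaged 0.36, 0.90 and 0.62 below the control mean with hairpins 1, 2 and 5. The KLF genes averaged 0.38, 0.70 and 0.41 below it, but their controls themselves ran from -0.21 to 0.17 around it. The AP-1 genes averaged 0.23, 0.36 and 0.40 below. The ERK feedback genes averaged 0.12, 0.59 and 0.22 below, where the lowest control stood at -0.07. The other 5 roles did not separate in this way.

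**Figure D4:**
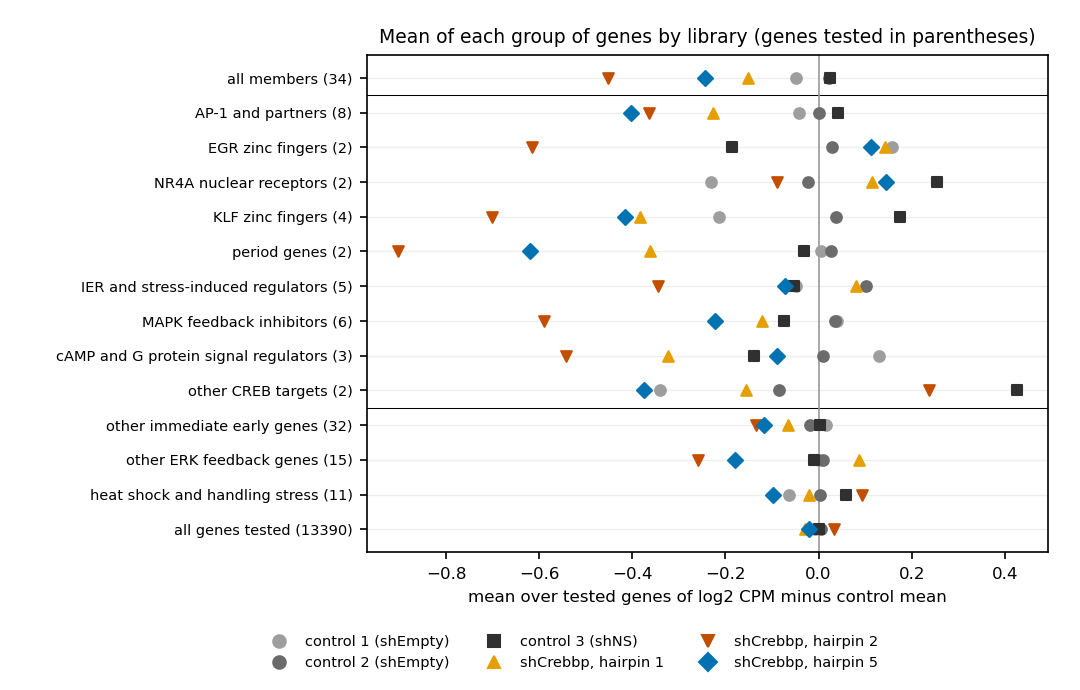
Mean over the tested genes of each group of log2 CPM minus the control mean (x axis), by library, with the number of genes tested in parentheses. The upper row is all tested members, the middle rows the 9 roles and the lower rows other lists and all tested genes. The row of all tested genes alone runs from -0.03 to 0.03 over the libraries.

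Other genes of these pathways, from 9 lists of genes that are not members, had a median near that of all genes when pooled. By list the median log2 fold change ran from -0.32 (CREB targets described in neuroendocrine cells) to 0.03 (CREB family and coactivators). Of 118 tested genes 1 was called higher and 0 lower in edgeR, with a median log2 fold change of -0.02. At an unadjusted p of 0.05, 14 were lower and 7 higher, where 8.46% and 7.99% of all tested genes were. DESeq2 called 3 lower (Btg2, Etv4 and Trib1) and 4 higher (Adcy3, Elk3, Homer1 and Pkia), against 3.23% and 2.22% of all genes. The called gene was Pkia, which encodes a heat-stable inhibitor of protein kinase A. Pkia rose from 42.4, 37.9 and 40.4 CPM in the controls to 71.1, 65.0 and 55.9 CPM under hairpins 1, 2 and 5 (log2 fold change 0.67 ± 0.11, edgeR adjusted p = 0.0323). It was not called when any of the 3 controls, or hairpin 2, was left out.

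None of the other 16 tested genes of cAMP production and protein kinase A passed in edgeR. Adcy3, an adenylyl cyclase that DESeq2 called higher, had a log2 fold change of 0.66 ± 0.14 (edgeR adjusted p = 0.0733). None of the 7 tested genes of the CREB family and its coactivators passed in edgeR, and the smallest p was that of Crtc1, a CREB coactivator (43.0 to 49.5 CPM under hairpins and 55.0 to 58.4 CPM in controls, edgeR adjusted p = 0.150). With all libraries, edgeR also called none of the 10 other phosphodiesterases (Pde11a, log2 fold change -1.69 ± 0.50, adjusted p = 0.153, called lower without hairpin 2), the 6 SRF and ETS partner genes (Elk3, 0.59 ± 0.16, adjusted p = 0.128) or the 16 RAS to ERK genes (Shc1, -0.28, adjusted p = 0.301).

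Among 32 further immediate early genes 0 were called in edgeR, 19 had negative and 13 positive fold changes, and the median was -0.13. Trib1, a pseudokinase gene, had the smallest p (39.3 to 50.0 CPM under hairpins and 61.3 to 74.2 CPM in controls, log2 fold change -0.61 ± 0.12, adjusted p = 0.0603). Among 15 further ERK feedback genes the smallest p was that of Etv4, an ETS factor induced by ERK, at 21.5, 18.4 and 15.0 CPM in the controls and 6.39, 9.76 and 10.5 CPM under hairpins (log2 fold change -1.04 ± 0.22, adjusted p = 0.0669). The 4 tested CREB targets described in neuroendocrine cells all had negative fold changes (Chga, -0.29, adjusted p = 0.244). Their median was -0.32, close to the -0.30 of the members. In edgeR 3 of them were lower at an unadjusted p of 0.05, against 8.46% of all tested genes. All hairpin libraries lay below all controls in 2, against 11.0%.

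Values that could move with the members are these. The 11 heat shock and handling genes, with 0 called in edgeR, averaged -0.06, 0.00 and 0.06 around the control mean in control replicates 1, 2 and 3 and -0.02, 0.09 and -0.10 with hairpins 1, 2 and 5. The epithelial markers Krt8, Krt18 and Cdh1 were called lower in edgeR, 3 of the 4 on their list, and their summed level with Epcam was 2235 to 2804 CPM in the controls and 1061 to 1520 CPM under hairpins. Of the 8 neuroendocrine markers 0 were called in edgeR, and 2 were lower and 1 higher at an unadjusted p of 0.05, with log2 fold changes from -1.04 to 0.68. The lowest was Calca, the calcitonin gene, at 1592 to 2010 CPM in the controls and 632 to 1161 CPM under hairpins (edgeR adjusted p = 0.0558). The 6 fibroblast markers summed to 37.7 to 45.2 CPM in the controls and 13.3 to 63.3 CPM under hairpins, nearly all of it Dcn, with Col3a1 at 0. The 6 leukocyte markers summed to 3.47 to 5.99 CPM in the controls and 4.29 to 5.66 CPM under hairpins. The part of these values in the members' differences was not tested. In bulk RNA, fewer cells expressing a gene and less RNA per cell cannot be told apart.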

How the data were processed

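The authors deposited raw counts by gene symbol, not normalized, in 1 file for each of the 6 libraries. Build mm9, TopHat2 2.0.12 (an aligner) and HTSeq 0.6.1 (a read counter) are named in the submitters' processing notes; annotation and strand setting were not given in the sources used here, so antisense and overlapping genes cannot be told apart. HTSeq summary rows (24.8% to 28.9% of counts) were left out. Counts were fitted over all genes with edgeR 4.0.16 in R 4.3.3 (TMM, filterByExpr, robust quasi-likelihood, group only), with Benjamini-Hochberg adjustment and a threshold of 0.05. Log2 CPM used a prior count of 2. DESeq2 1.42.0 and limma-voom (limma 3.58.1), other normalizations, filters and left-out libraries were alternatives; fits were tested on simulated data. Values per length used exon lengths of GENCODE vM21, matched by symbol. Members and lists were chosen with earlier results of these data known. All members could be named, with values in every library for those passing in any fit, the 12 of smallest p and the most abundant of each role; other lists gave called genes or the gene of smallest p (Adcy3 was added after its value was seen).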

Additional observations from a re-analysis of the deposited data

How the results depend on the processing

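The median log2 fold change of the members was negative under all 13 alternatives (-0.38 to -0.24), and the difference of mean log2 CPM was negative under the 10 alternatives run for it, from -0.36 (without hairpin 1) to -0.20 (without hairpin 2). The count of members called lower, 0 in edgeR, became 1 under upper quartile scaling, where 141 of 13390 tested genes were called lower. It became 3 with no filter (178 of 18097 genes), 6 in DESeq2 (433 of 13385) and 0 to 4 over left-out libraries. Without hairpin 1 it was 3 (Dusp4, Junb and Per1), where 237 of 13554 genes were called lower. Without hairpin 5 it was 4 (Dusp6, Klf10, Maff and Rgs2), where 247 of 13532 genes were. The count called higher was 0 to 1 over left-out libraries (Egr1, without hairpin 2, where 20 of 13487 genes were called higher). Over all genes 168 were called in edgeR and 730 with DESeq2, and 0 to 389 with a library left out: leaving out either shEmpty library gave 0, leaving out shNS 48, and leaving out hairpin 1, 2 or 5 gave 368, 101 or 389, so that the members' counts rest on few libraries. The 1 called gene of the other lists became 2 under upper quartile scaling (183 of 13390 genes called) and 3 with no filter (235 of 18097). It became 7 in DESeq2 and 0 to 7 over left-out libraries. The mean ratio with hairpin 2 was -0.41 with upper quartile normalization, an alternative added after seeing the data. Of 442 member values under alternatives, 17 passed lower and 1 higher, and 17 changed sign, none of them called. These were Dusp5 with limma-voom (-0.068) and, over left-out libraries, Fosl2 (-0.40 to 0.11), Jun (-0.063 to 0.22), Jund (-0.20 to 0.037), Klf2 (-0.50 to 0.14), Ier3 (-0.17 to 0.23), Ier5 (-0.10 to 0.37), Dusp5 (-0.53 to 0.43), Spry2 (-0.40 to 0.019), Ppargc1a (-0.35 to 0.065) and Bdnf (-0.36 to 0.23), in log2. The fold change kept its sign but moved over 1.5 times without 1 library in Atf3 (-0.13 without shNS), Dusp1 (0.0092 without hairpin 1), Klf4 (-0.55 without hairpin 2) and Nr4a2 (0.35 without hairpin 5), and for Egr1, Dusp4, Dusp6, Sik1 and Ier2 as given with their values. The cause was not tested. No paired analysis was possible because the numbers of the shCrebbp libraries name hairpins and only 1 of the control titles carries a number. Tested members with a group mean under 3 CPM (Fosb, Egr2, Ier3, Dusp5 and Spry4) rest on few reads, as does Klf4 with hairpin 2 (27 reads).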
